A study of Mus musculus with 4 samples.

Results

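The genes of the cytosolic ribosomal proteins were followed in mouse motor neurons (MNs) with and without the zinc finger protein PATZ1. Members were taken by name from the gene symbols of the count tables. Symbols of the Rpl, Rps and Rplp series and *Rpsa* were kept, and the Rps6k kinases and rows named as pseudogenes were left out. This gave 81 members among 23420 symbols, 31 of the small and 50 of the large ribosomal subunit. A gene was tested where at least 2 libraries held 10 or more counts, which left 78 members among 14394 genes. *Rpl26*, *Rpl30* and *Rpl3l* fell under this minimum.

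Total RNA was sequenced from 4 libraries, 2 of wild type (WT) and 2 of Patz1 -/- MNs (*Patz1* KO). All came from E14, a male mouse embryonic stem cell (ESC) line, which was taken through embryoid bodies to cervical MNs with retinoic acid and a smoothened agonist. The KO was made in E14 cells with CRISPR/Cas9. Several KO lines were derived, and the labels do not say which line gave which library, so it is not known here whether both KO libraries come from 1 clone. The sample titles name ESCs, whereas source and cell type name MNs, and they were read as MNs. The study describes replicates as independent differentiations. No sorting step after differentiation is described in the sources used here, so each library was read as a mixture of cells.

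Each cytosolic ribosome joins a small subunit, which reads the mRNA, to a large subunit, which forms the peptide bond, and nearly every protein of both subunits is present in a single copy. Their mRNAs are among the most abundant of any growing cell. Most begin with a run of pyrimidines at the cap, the terminal oligopyrimidine (TOP) tract, through which mTORC1 and LARP1 control their translation together. New ribosomal proteins are built into subunits in the nucleolus by a large set of assembly factors, on rRNA made by RNA polymerases I and III. Loss of 1 copy of several of these genes causes Diamond-Blackfan anaemia, and a few members have paralogues with a narrow pattern of expression in testis, muscle or under stress.

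Library totals lay between 14769104 and 23881522 counts. *Patz1* had 91.5 and 94.3 CPM (counts scaled by library size) in the WT and 47.6 and 42.6 CPM in the KO libraries, or −1.04 ± 0.095 as log2 fold change with its standard error (SE), at an adjusted p of 9.93e-08 in edgeR's quasi-likelihood test. Transcripts of the targeted gene were still counted in the KO. All 8 MN markers were counted in every library and 7 of them were higher in the KO, where their summed level was 846 and 930 CPM against 571 and 613 CPM in WT. Markers of other cells moved too. In the same test 47.4% of all genes tested passed, with 24% higher and 23.4% lower in the KO. The WT and KO groups did not overlap for 73.9% of all genes tested. The marker counts given here were not tested against these shares. Of 6 cycling cell markers 5 fell, with summed levels of 1693 and 1796 CPM in WT against 1002 and 1006 CPM in KO, and *Mcm2* (0.12) did not pass. Of 7 primitive endoderm markers 6 fell (524 and 552 CPM against 231 and 260 CPM), and all 6 mesenchyme markers fell (184 and 206 CPM against 30.45 and 36.2 CPM). In WT most of the endoderm sum was *Lama1* (288 and 296 CPM) and *Sparc* (206 and 222 CPM). *Gata6* had 5.04 and 6.1 CPM there and *Gata4* 4.97 and 5.03 CPM. Of 6 neural progenitor markers 3 fell and 1 rose (820.5 and 848 CPM against 573 and 595 CPM). The one that rose was *Nkx6-1* (log2 fold change 0.47), and *Sox2* (−0.20) and *Olig2* (−0.17) did not pass. *Isl1* (−0.19) of the MN list and *Afp* (−0.035) of the endoderm list did not pass either. Pluripotent cell markers summed to between 5.32 and 8.30 CPM in all libraries. By the smallest p, the lists were led by *Chat* (log2 fold change 0.99), *Mnx1* (0.88) and *Lhx4* (0.87) for MNs, *Mki67* (−1.13), *Top2a* (−0.96) and *Ccnb1* (−0.80) for cycling cells, *Dab2* (−3.34), *Sparc* (−1.19) and *Gata4* (−3.49) for endoderm, *Col3a1* (−3.24), *Pdgfra* (−3.96) and *Col1a1* (−2.18) for mesenchyme and *Hes5* (−0.99), *Pax6* (−1.05) and *Nes* (−0.72) for progenitors. No marker of these lists was at 0 in any library, and the part of the cell mixture in the results that follow was not tested.

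The family as a whole did not separate the genotypes, and the pair of KO libraries differed from each other. Members took 6.37% and 6.04% of all counts in WT replicates 1 and 2, and 5.07% and 6.34% in *Patz1* KO replicates 1 and 2. The first KO library was thus below both WT libraries, while the second lay between them. The means were 6.21% ± 0.233 in WT and 5.71% ± 0.898 in KO (SD, n = 2 each). With 2 libraries against 2, an exact permutation test cannot reach p = 0.05, and none was made. The summed level of the members was 63191 and 59737 CPM in WT, 49965 CPM in KO replicate 1 and 65801 CPM in KO replicate 2, which was the highest on this scale. In bulk RNA, fewer cells of a type and less RNA per cell cannot be told apart.

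**Figure D1:**
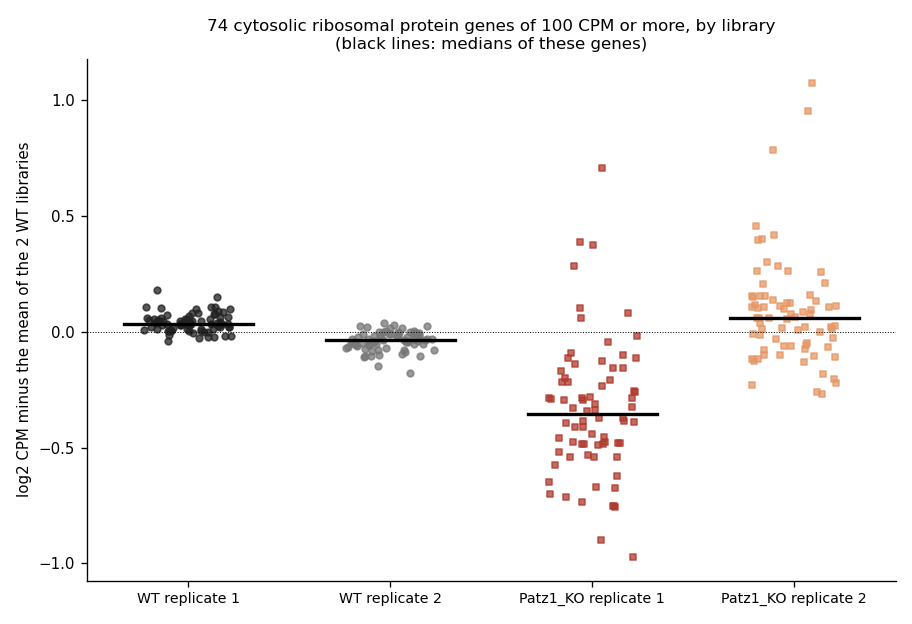
Level of each of 74 members of 100 CPM or more in each library, as log2 CPM minus the mean of the 2 WT libraries, with points for genes and black lines for their medians. The KO replicate 1 points centre on −0.36 and the KO replicate 2 points on 0.058, while the WT libraries centre on 0.035 and −0.035.

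The gap between the KO libraries ran through the whole family. Of the 74 members with a mean of 100 CPM or more, all 74 were lower in KO replicate 1 than in KO replicate 2, by a median of 0.43 on the log2 scale and by 0.047 to 0.89 for single genes. KO replicate 1 was below both WT libraries for 66 of these members, and KO replicate 2 for 21 of them. On the log2 scale, KO replicate 1 over KO replicate 2 had a median of −0.43 over the members tested and 0.014 over all genes tested. This ratio was −0.13 over mitochondrial ribosomal proteins and −0.023 over ribosome assembly factors. Between the WT libraries the members differed by a median of 0.067. Small and large subunit genes moved together in each library, since their summed counts stood in a ratio of 0.75 and 0.743 in WT and 0.727 and 0.756 in KO.

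Other measures differed between the KO libraries in the same comparison. The gap was −0.52 for the 26 shortest of the members tested (transcripts of 345 to 661 bases) and −0.34 for the 26 longest (998 to 5179 bases). *Rpph1*, *Rmrp* and *Rn45s*, which are non-coding and have very many counts, took more of KO replicate 2. Their share was 6.55% and 6.33% in WT, 6.81% in KO replicate 1 and 9.65% in KO replicate 2. Among them *Rpph1*, the RNA of RNase P, had 29572 CPM in KO replicate 1 and 45151 CPM in KO replicate 2. Without these RNAs in the totals, members took 6.82% and 6.45% of counts in WT and 5.44% and 7.02% in KO, so the gap remained. The part of transcript length or library composition in the family's difference was not tested.

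Against this spread, 12 of the 78 members passed an adjusted p of 0.05 in edgeR's quasi-likelihood test, or 15.4%, where 47.4% of all genes tested did. The 5 that rose were *Rpl10l*, *Rps4x*, *Rpl36a*, *Rpl32* and *Rpl13*. The 7 that fell included *Rpl39l*, *Rps27l*, *Rps12*, *Rpl41*, *Rpl36al* and *Rplp1*. Members called higher were 6.41% of those tested (24% of all genes) and members called lower 8.97% (23.4% of all genes). No test of these shares was made. The members' absolute log2 fold changes had a median of 0.19 and a median standard error of 0.13, against 0.34 and 0.12 over all genes. Their signed median was −0.15, against −0.0014 for all genes, and 62 of 78 had a negative value. That median became 0.057 without KO replicate 1 and −0.37 without KO replicate 2, against −0.0035 and 0.005 over all genes in the same fits. The direction of the family as a whole therefore rested on 1 library.

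**Figure D2:**
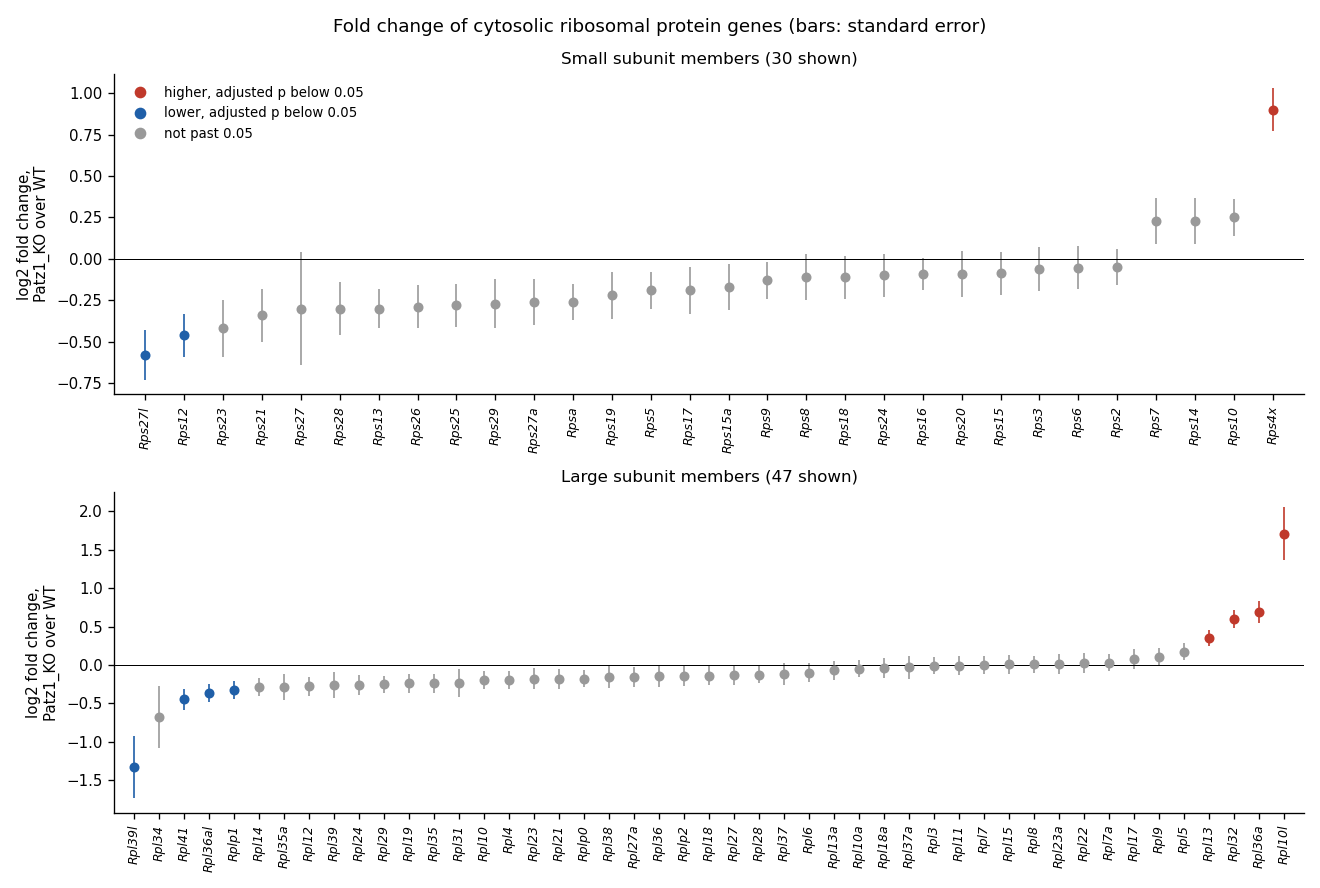
Log2 fold change of Patz1 -/- over WT for members tested, with points for genes, bars for the SE, small subunit genes above and large subunit genes below. Most grey points (not past adjusted p 0.05) lie just below 0, and *Rps4x* and *Rpl10l* stand farthest to the right in their panels.

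The 2 subunits had few calls each. Of 31 small subunit genes, 1 rose and 3 fell, with a median log2 fold change of −0.19. Of 47 large subunit genes, 4 rose and 4 fell, with a median of −0.14. The members that just missed the threshold were *Rps13* (log2 fold change −0.30, adjusted p = 0.0521), *Rpl14* (−0.29, adjusted p = 0.0533) and *Rps23* (−0.42, adjusted p = 0.0558), and the last called was *Rplp1* (adjusted p = 0.0368). They are named here because they lie next to the threshold.

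*Rps4x*, an X-linked protein of the small subunit that binds the rRNA in its body, had the smallest p of the family. The 2 WT libraries held 16397 and 17217 of its counts and the KO libraries 43205 and 38603, or 1101 and 1083 CPM against 1783 and 2301 CPM. Both KO libraries were above both WT libraries, and this included the KO library in which the family as a whole was low. Its log2 fold change reached 0.90 with an SE of 0.13 (adjusted p = 2.12e-05, edgeR). It stayed between 0.71 and 1.08 under all 18 other settings tried, with the call kept in each. The gene lies on the minus strand at chrX:102184941-102189394 (mm10).

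*Rpl36a* and *Rpl32* rose as well. *Rpl36a*, an X-linked large subunit protein, had 489 and 516 CPM in WT and 652 and 973 CPM in KO (log2 fold change 0.69, SE 0.14, adjusted p = 0.000568). *Rpl32*, a large subunit protein encoded on chromosome 6, had 492 and 503 CPM against 651 and 858 CPM (log2 fold change 0.60, SE 0.12, adjusted p = 0.000521). In both genes the groups did not overlap, and the call was kept under all 18 other settings. Without KO replicate 2 the log2 fold changes were 0.38 and 0.39, and without KO replicate 1 they were 0.95 and 0.79. An exon of *Rpl32* overlaps *Cand2* on the other strand and *Snora7a*, and the strand setting of the counting is not given in the sources used here.

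*Rpl13*, a large subunit protein on chromosome 8, changed less, with 798 and 791 CPM in WT against 966 and 1060 CPM in KO (log2 fold change 0.35, SE 0.11, adjusted p = 0.0126). Its adjusted p was 0.154 without WT replicate 1 and 0.174 without WT replicate 2. *Rpl10l*, an intronless copy of *Rpl10* known from male germ cells, was counted 11 and 44 times in WT and 153 and 89 times in KO. The edgeR fit gave 1.71 ± 0.35 (log2 fold change ± SE, adjusted p = 0.000543), and the value lay between 1.08 without WT replicate 1 and 2.98 without WT replicate 2. At 0.739 and 2.77 CPM in WT and 6.31 and 5.30 CPM in KO it remained at a level near the bottom of the family, and DESeq2's Wald test gave it an adjusted p of 0.0982.

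Among the 7 that fell, *Rps27l* had the smallest p. It is a paralogue of *Rps27* known as a target of p53. It had 247 and 255 CPM in WT and 128 and 208 CPM in KO (log2 fold change −0.58, SE 0.15, adjusted p = 0.00297). The call was kept without either KO library, with values of −0.27 without KO replicate 1 and −0.97 without KO replicate 2. It was lost in DESeq2's Wald test (adjusted p = 0.186) and with robust estimation (adjusted p = 0.254).

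*Rps12*, a small subunit protein, hosts small nucleolar RNAs in its introns. It had 820 and 793 CPM in WT and 497 and 673 CPM in KO (log2 fold change −0.46, SE 0.13, adjusted p = 0.00549). Both KO values were below both WT values. Without WT replicate 1 the adjusted p was 0.0525, while the call was kept without KO replicate 1, at −0.26.

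*Rpl41*, the shortest ribosomal protein, and *Rplp1*, a stalk protein that recruits elongation factors, are among the most highly expressed members. *Rpl41* had 1803 and 1617 CPM in WT and 1042 and 1455 CPM in KO (log2 fold change −0.45, SE 0.14, adjusted p = 0.0137). *Rplp1* had 1210 and 1055 CPM against 809 and 997 CPM (log2 fold change −0.33, SE 0.12, adjusted p = 0.0368). Neither call held throughout. *Rpl41* gave an adjusted p of 0.156 without WT replicate 1, 0.0611 without KO replicate 1 and 0.148 in DESeq2's Wald test. *Rplp1* gave 0.39, 0.0904 and 0.113 without WT replicate 1, WT replicate 2 and KO replicate 1.

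A further pair that fell are paralogues of other members. *Rpl36al*, an autosomal copy of *Rpl36a*, had 225 and 209 CPM in WT and 138 and 198 CPM in KO (log2 fold change −0.37, SE 0.12, adjusted p = 0.019). Its call was lost without WT replicate 1 (adjusted p = 0.0937), without KO replicate 1 (0.162), with robust estimation (0.136) and in DESeq2's Wald test (0.278). *Rpl39l*, the testis-enriched copy of *Rpl39*, was counted 20 and 37 times in WT and 18 and 12 times in KO, which is 1.34 and 2.33 CPM against 0.743 and 0.715 CPM (log2 fold change −1.33, SE 0.41, adjusted p = 0.0118). Without WT replicate 2 its adjusted p was 0.293, and DESeq2's Wald test gave 0.0635.

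Because the family moved as a block in KO replicate 1, each member was also expressed as a percent of all member counts in its own library. This measure was added after the data were seen and has no test. *Rps4x* made up 1.74% and 1.81% of the family in WT and 3.57% and 3.50% in KO, so the KO libraries came close to each other on this scale. *Rpl32* made up 0.778% and 0.843% against 1.30% and 1.30%, and *Rpl36a* 0.774% and 0.864% against 1.30% and 1.48%. On the falling side, *Rps12* went from 1.30% and 1.33% to 0.994% and 1.02%. *Rpl41* went from 2.85% and 2.71% to 2.09% and 2.21%.

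All 12 called members kept their direction on this scale with no overlap between groups. They were called from these same counts, so this adds no support to the calls. Over the 78 members tested, the KO was higher in both libraries for 15, lower in both for 30 and overlapping for 33. On the CPM scale the KO was higher in both libraries for 7 of the 78 members and lower in both for 23, while groups did not overlap for 73.9% of all genes tested on that scale. The log2 ratio of the mean shares was within 0.2 of 0 for 50 of the 78 members and went from −1.23 to 1.83. *Rps4x* was the largest departure among the abundant ones.

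**Figure D3:**
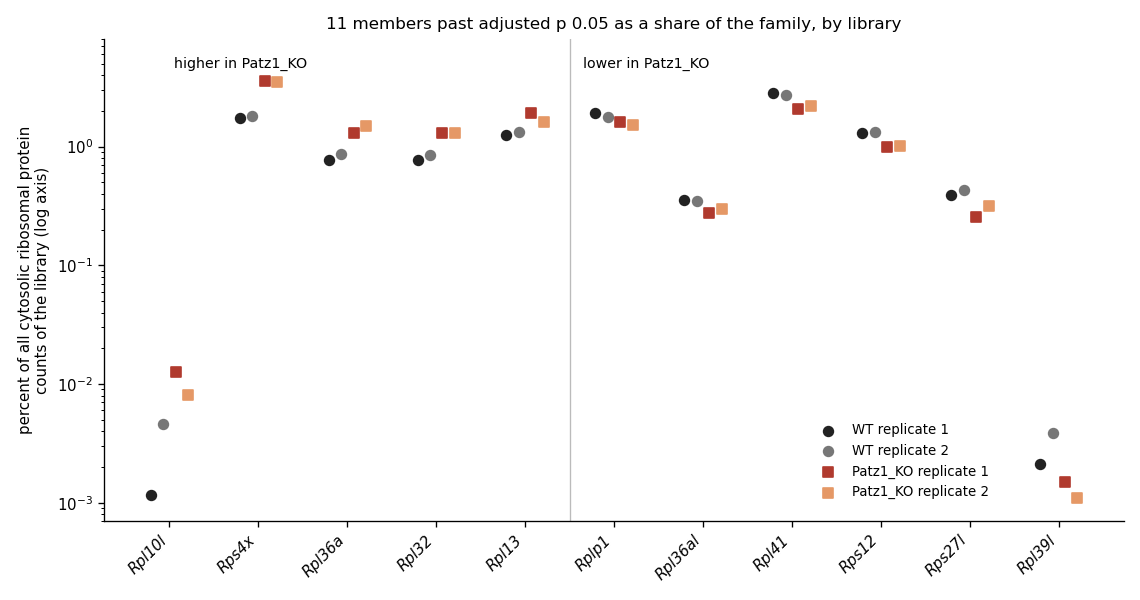
Counts of 11 of the called members, each as a percent of all cytosolic ribosomal protein counts in the same library, on a log axis, with circles for WT and squares for Patz1 -/- libraries. *Rps4x* lies at 1.74% and 1.81% in WT and at 3.57% and 3.50% in KO, and the 2 genes under 0.02%, *Rpl10l* and *Rpl39l*, are far below the rest.

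Promoter sequences were read to see what the members share beyond their names. RefSeq's GRCm38.p6 table gave 73 promoters of 300 bases for 61 of the 81 members, each from 250 bases before to 50 after an annotated start. A TOP-like tract, taken as 8 or more pyrimidines in a row that begin with C within 25 bases of the start on the transcribed strand, was found in 50.7% of member promoters and in 16.4% of all 32851 promoters. The letters CTTTCC on either strand, which can overlap that tract, were in 50.7% of member promoters and in 26.6% of all. The G-rich letters GGGAGGG on either strand, which resemble the sequences that PATZ1 and MAZ are known to bind, were in 8.22% of member promoters (6 of 73) and in 22% of all. None of the 4 promoters of members called higher and none of the 6 of members called lower held GGGAGGG, which says only that these letters are not in these windows.

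The windows that follow span 30 bases near the annotated start of 8 members. They are shown because the tract is more frequent in member promoters than in all promoters, and because called members stood on both sides of it. Capitals mark the tract where one was found. The first pair, from genes that were not called and were picked after their values were seen, hold long tracts of 18 and 19 pyrimidines. The next 3, from 1 gene that rose and 2 that fell, hold shorter ones of 10, 11 and 9. The last 3 have none by this definition, and come from 2 genes that rose and 1 that fell. Among genes not called, *Rpl38* and *Rps9* hold tracts of 8 and *Rpl5* one of 9, and *Rpl10* and *Rpl24* have none. These 8 windows therefore do not show how tract length stands to the call.
Rpl35: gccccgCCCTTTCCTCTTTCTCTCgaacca
Rpl7a: caattCCCTCTTCTTTCTTTCTCCagcagc
Rpl13: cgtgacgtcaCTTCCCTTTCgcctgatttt
Rps12: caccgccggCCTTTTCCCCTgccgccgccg
Rps27l: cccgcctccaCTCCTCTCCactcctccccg
Rps4x: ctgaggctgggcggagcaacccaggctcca
Rpl36a: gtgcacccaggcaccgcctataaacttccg
Rpl41: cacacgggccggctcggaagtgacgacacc
In GRCm38.p6 (mm10) these windows lie at chr2:39005115-39005144 on the minus strand (*Rpl35*), chr2:26910790-26910819 on the plus strand (*Rpl7a*), chr8:123102324-123102353 on the plus strand (*Rpl13*) and chr10:23787181-23787210 on the minus strand (*Rps12*). The other windows lie at chr9:66946054-66946083 on the plus strand (*Rps27l*, the first of its annotated starts), chrX:102189377-102189406 on the minus strand (*Rps4x*), chrX:134585639-134585668 on the plus strand (*Rpl36a*) and chr10:128549154-128549183 on the minus strand (*Rpl41*). By call, the tract was in 25% of promoters of members that rose (1 of 4), in 33.3% of those that fell (2 of 6) and in 55% of those not called (33 of 60).

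Proteins were next grouped by their place in the ribosome. The stalk, which recruits the elongation factors, is made of *Rplp0*, *Rplp1*, *Rplp2* and *Rpl12*. Only *Rplp1* of these passed the test. *Rplp0* had 1331 and 1222 CPM in WT and 1084 and 1175 CPM in KO (log2 fold change −0.18, adjusted p = 0.214), and *Rpl12* had 762 and 729 CPM against 532 and 694 CPM (−0.28, adjusted p = 0.0611). *Rplp2* had 322 and 307 CPM against 229 and 340 CPM, and its groups overlapped (−0.14, adjusted p = 0.383). The value of *Rplp2* became 0.11 without KO replicate 1.

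*Rpl5* and *Rpl11* bind the 5S rRNA, and outside the ribosome this particle inhibits MDM2. *Rpl5* had 745 and 765 CPM in WT and 797 and 904 CPM in KO (log2 fold change 0.17, SE 0.11, adjusted p = 0.204). *Rpl11* had 589 and 552 CPM against 478 and 657 CPM (−0.0081, SE 0.13, adjusted p = 0.963). Neither passed the test in edgeR or in DESeq2, none of the pair had an unadjusted p under 0.05, both were called higher without KO replicate 1, and *Rpl11* was called lower without KO replicate 2.

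*Rps27a* and, outside the name rule, *Fau* are made as fusions with ubiquitin or a ubiquitin-like protein. *Rps27a* had 930 and 924 CPM in WT and 623 and 921 CPM in KO (log2 fold change −0.26, adjusted p = 0.133). *Fau* had 534 and 449 CPM against 404 and 504 CPM (−0.12, adjusted p = 0.442). In both, KO replicate 1 was the lowest library and KO replicate 2 was close to WT, and DESeq2 called neither.

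A list of disease genes and a pair of lists by position had no call in edgeR, where 15.4% of members and 47.4% of all genes were called. Of 15 tested genes mutated in Diamond-Blackfan anaemia none passed in edgeR or DESeq2, and 2 had an unadjusted p under 0.05. These were *Rps26*, at 616 and 611 CPM in WT and 422 and 583 CPM in KO (log2 fold change −0.29, adjusted p = 0.0668), and *Rps10*, at 573 and 507 CPM against 578 and 710 CPM (0.25, adjusted p = 0.0783). *Rps28* followed (−0.30, adjusted p = 0.127). Of 11 tested genes in a list drawn up for the peptide exit tunnel and its surroundings, none passed in either tool. None of them had an unadjusted p under 0.05. The place of each protein in the ribosome was not checked, and *Rpl24* may not belong in this list. The smallest p values there belonged to *Rpl19* (−0.24), *Rpl35* (−0.24) and *Rpl24* (−0.26). Of 9 proteins along the path of the mRNA none passed in edgeR, 2 had an unadjusted p under 0.05 (*Rpsa*, at −0.26, and *Rps26*), and DESeq2 called 1, *Rpsa*. Without KO replicate 2 the anaemia, tunnel and mRNA path lists had medians of −0.48, −0.44 and −0.29. Without KO replicate 1 these were 0.11, 0.11 and 0.022.

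Several members have a paralogue, and the partners of some pairs had unlike values. *Rpl36a* and *Rpl36al* moved in opposite directions, with log2 fold changes of 0.69 and −0.37, and their coding sequences are 87.9% identical. *Rps27l* fell, and its partner *Rps27*, with a 76.1% identical coding sequence, had 2.15 and 2.20 CPM in WT and 1.28 and 2.38 CPM in KO (−0.30, SE 0.34, adjusted p = 0.503). Counts of *Rps27* were so low that they were not read as its expression level, so this pair is not compared. *Rpl10l* rose, while *Rpl10* had 1113 and 1109 CPM in WT and 878 and 1052 CPM in KO (−0.20, SE 0.12, adjusted p = 0.161). Here the identity was 84.8%.

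*Rpl39* and *Rpl39l*, 85.3% identical, had log2 fold changes of −0.26 (adjusted p = 0.233) and −1.33. *Rpl39* had 656 and 683 CPM in WT against 397 and 721 CPM in KO. *Rpl3* had 1152 and 1150 CPM against 1063 and 1222 CPM (−0.011, adjusted p = 0.948). *Rpl3l*, its copy in striated muscle with 73.1% identity, had 4, 6, 3 and 2 counts in the libraries and was not tested. Not one of the pairs shares a run of 50 bases, whereas many members share such runs with pseudogenes.

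2 further pairs have a partner outside the name rule. *Rpl22* had 349 and 360 CPM in WT and 296 and 424 CPM in KO (log2 fold change 0.021, adjusted p = 0.904). *Rpl22l1*, its 66.9% identical paralogue, fell from 116 and 117 CPM to 59.9 and 94.6 CPM (−0.60, SE 0.14, adjusted p = 0.00167), and lost the call in DESeq2's Wald test (adjusted p = 0.139) and with robust estimation (0.166). *Rpl7* had 1215 and 1163 CPM against 1078 and 1296 CPM (−0.0031, adjusted p = 0.986). *Rpl7l1* had 118 and 121 CPM against 114 and 112 CPM (−0.08, adjusted p = 0.463).

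*Rps4x* has a relative listed as *Rps4y2*, which RefSeq and GENCODE name *Rps4l* and annotate as a transcribed pseudogene on chromosome 6. It was counted 1633 and 1463 times in WT and 5917 and 3399 times in KO, or 110 and 92 CPM against 244 and 203 CPM. This is 1.15 ± 0.11 on the log2 scale (± SE, adjusted p = 1.11e-07), and the groups did not overlap. The coding sequence of *Rps4x* and the whole *Rps4y2* transcript are 79.9% identical over a local alignment of 783 bases, and they share no run of 50 bases. The other pairs were aligned end to end, so this identity is not comparable with theirs. Both thus had more counts in both KO libraries.

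4 members lie on the X chromosome, *Rps4x*, *Rpl36a*, *Rpl10* and *Rpl39*. The first pair rose and the second pair had values of −0.20 and −0.26 without passing the test, so position on this chromosome did not go with 1 direction. Without KO replicate 2, *Rpl10* and *Rpl39* were called lower, at −0.34 and −0.75.

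Of the other cytosolic ribosomal proteins that the name rule leaves out, *Rps3a1* had 1097 and 1065 CPM in WT and 1001 and 1226 CPM in KO (log2 fold change 0.043, adjusted p = 0.792). *Gnb2l1*, the symbol used here for *Rack1*, a signalling scaffold on the small subunit, had 1070 and 980 CPM against 1233 and 1267 CPM (0.29, SE 0.11, adjusted p = 0.0426). That call was lost without WT replicate 1 (adjusted p = 0.176) and without WT replicate 2 (0.422). Of the 6 tested genes of this list 1 rose and 1 fell, or 33.3% called against 47.4% of all genes.

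Levels were compared between genes as CPM per kilobase of the principal transcript in GENCODE M21, averaged over the 4 libraries. *Rpl41* was the highest at 3385 CPM per kb, followed by *Rps29* (3050) and *Rps28* (2822). The WT values were 3914 ± 301, 3333 ± 53 and 3111 ± 73.4 CPM per kb and the KO values 2857 ± 668, 2768 ± 859 and 2533 ± 816 CPM per kb (SD, n = 2). In KO the spread between libraries was larger than the distance between these neighbours. The 74 members with 100 CPM or more lay between 116 and 3385 CPM per kb with a median of 984, and the other 7 members were all below 20 CPM, with none between.

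The 7 low members are of 2 kinds. *Rpl10l*, *Rpl39l* and *Rpl3l* are paralogues with a restricted pattern, at 3.70, 1.59 and 0.162 CPM per kb. *Rps27*, *Rpl34*, *Rpl30* and *Rpl26* are ribosomal proteins without such a restricted pattern, and yet were at 5.81, 2.24, 0.444 and 0 CPM per kb. *Rpl26* had no count in any library, and *Rpl30* had 2, 5, 5 and 6 counts. Of their transcripts, 98.6%, 50.6%, 76.4% and 71.3% of the 50-base words occur in at least 1 other annotated gene, mostly pseudogenes. Other members with more shared sequence than *Rpl34*, *Rpl30* and *Rpl26* were high, such as *Rpl10* with 92.1% and 1299 CPM per kb. The 98.6% of *Rps27* was the highest of all members. How reads with several matches were counted is not given in the sources used here, so the values of these 4 genes were not read as expression levels.

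**Figure D4:**
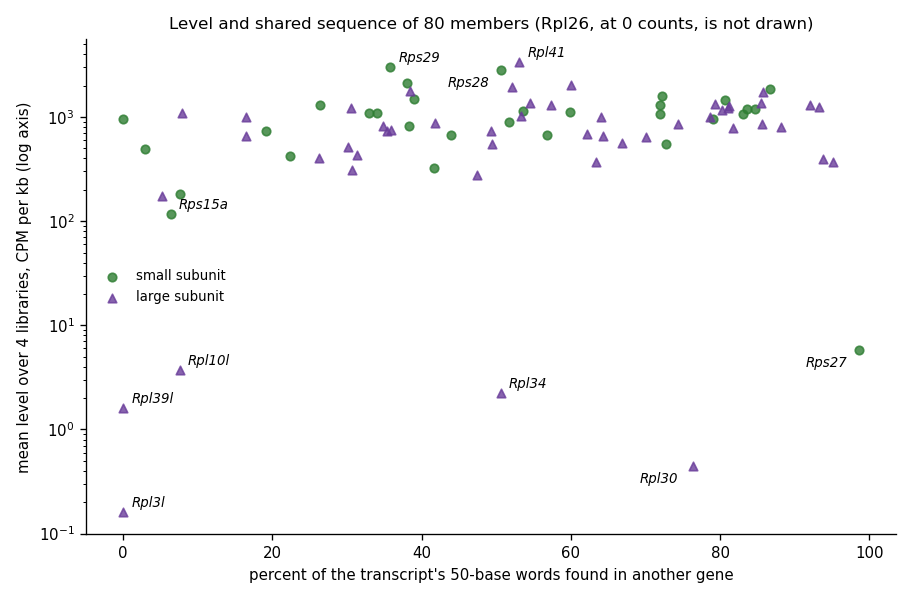
Mean level of 80 members over the 4 libraries, in CPM per kb on a log axis, against the percent of each transcript's 50-base words that another gene also holds, with circles for small and triangles for large subunit genes. *Rps27*, *Rpl34* and *Rpl30* lie below 6 CPM per kb at 98.6%, 50.6% and 76.4% shared words, while most members lie near 1000 CPM per kb over the whole range of the axis.

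Calls were also counted by shared sequence, against 47.4% called over all genes. Of 34 members with under 50% shared words 14.7% were called, and of 44 members with 50% or more 15.9% were called, with medians of −0.15 and −0.14. Without KO replicate 2 these medians were −0.36 and −0.37, and without KO replicate 1 they were 0.058 and 0.057. Of 28 tested members that host a small nucleolar RNA in an intron 2 rose and 2 fell, and of 50 others 3 rose and 5 fell (14.3% and 16% called). Hosts and others had medians of −0.33 and −0.40 without KO replicate 2, and of 0.074 and 0.054 without KO replicate 1. Calls were spread unevenly over transcript length. Of the 26 shortest members 2 rose and 6 fell (median −0.26), of the 26 in the middle 2 rose and 1 fell (−0.13) and of the 26 longest 1 rose and none fell (−0.10). These are descriptions with no test, and the gap between the KO libraries was also largest among the shortest. DESeq2's Wald test called 2 higher and 3 lower among the shortest, 2 higher and none lower in the middle and none higher and 2 lower among the longest, so this order was not kept by that tool. From the shortest to the longest, medians were −0.51, −0.29 and −0.30 without KO replicate 2 and 0.054, 0.067 and 0.066 without KO replicate 1.

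For the factors that assemble ribosomes the direction did not rest on 1 KO library. Of 95 ribosome assembly and rRNA processing factors 61 fell and 5 rose, or 69.5% called against 47.4% of all genes, with a median log2 fold change of −0.33. Without KO replicate 1 that median was −0.32, and without KO replicate 2 it was −0.36. *Mdn1*, a giant ATPase that remodels the pre-60S particle, had 174 and 187 CPM in WT and 103 and 89.7 CPM in KO (−0.91, SE 0.093, adjusted p = 3.64e-07). *Utp20*, a scaffold of the small subunit precursor, had 92.9 and 102 CPM against 54.2 and 47.5 CPM (−0.94, SE 0.098, adjusted p = 4.81e-07). *Gnl3l*, a nucleolar GTPase, went the other way from 208 and 202 CPM to 462 and 474 CPM (1.19, SE 0.093, adjusted p = 1.32e-08).

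Of 15 genes of RNA polymerase I and its factors 6 fell and none rose, or 40% called where 47.4% of all genes were, and DESeq2's Wald test called 3 lower. Those that fell in edgeR include *Ubtf*, which opens rDNA for transcription (143 and 150 CPM against 106 and 95.1 CPM, log2 fold change −0.54), *Rrn3* (−0.42) and *Polr1b* (−0.49). *Myc*, which drives many of these genes, was at 9.27 and 11.6 CPM in WT and 4.87 and 4.29 CPM in KO (−1.18, SE 0.19, adjusted p = 7.24e-05). Its relative *Mycn* was higher than *Myc* in every library and was not called. It had 38.9 and 39.4 CPM in WT against 40.8 and 44.9 CPM in KO (0.13). Over the 10 tested genes of *Myc* and its partners, 2 rose and 3 fell, with *Mga* lower (−0.60) and *Mxi1* higher (0.40). This is 50% called, near the share over all genes. The polymerase list had a median of −0.11 without KO replicate 1 and of −0.27 without KO replicate 2.

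**Figure D5:**
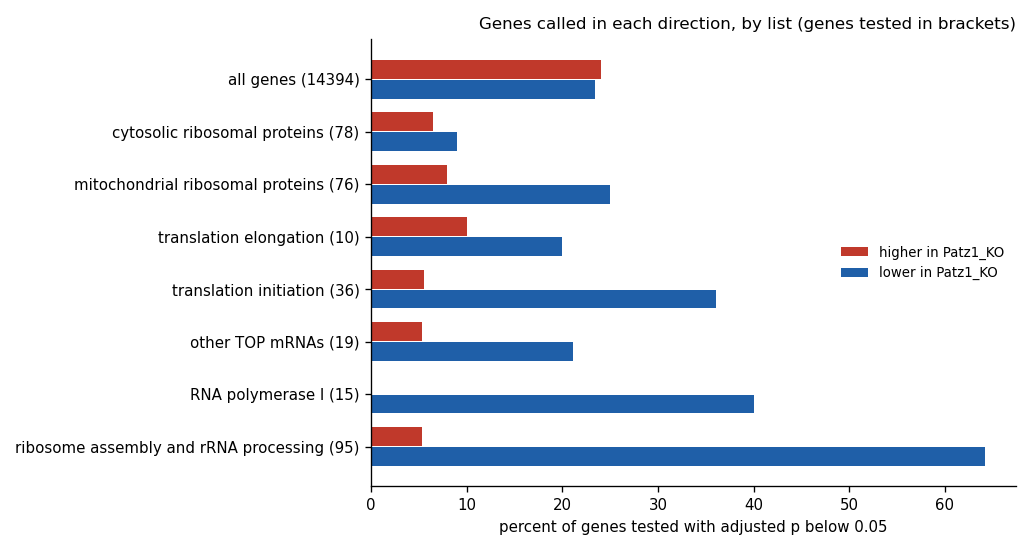
Percent of tested genes called higher (red) and lower (blue) in Patz1 -/- by edgeR for all genes and for 7 lists of the translation pathway, with the number tested in brackets. Cytosolic ribosomal proteins have 6.41% higher and 8.97% lower, while ribosome assembly factors have 5.26% higher and 64.2% lower.

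Translation factors lay between these lists. Of 36 initiation factors 2 rose and 13 fell (median −0.11), or 41.7% called against 47.4% of all genes. That median was −0.053 without KO replicate 1 and −0.12 without KO replicate 2. Examples are *Eif1ax* higher (152 and 168 CPM against 282 and 347 CPM, log2 fold change 0.98) and *Eif3a* (−0.62) and *Eif2s2* (−0.53) lower. Of 10 elongation factors 1 rose and 2 fell (30% called). Their median was −0.037, or 0.046 without KO replicate 1 and −0.10 without KO replicate 2. *Eef1a2*, the form of neurons and muscle, rose from 8.39 and 7.17 CPM to 18.4 and 16.1 CPM (1.15, SE 0.15), while *Eef1d* (−0.51) and *Eif5a* (−0.37) fell.

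Other mRNAs known to carry a TOP tract, which share that feature and not the function, had 1 of 19 higher and 4 lower, with a median of −0.039, or 26.3% called against 47.4% of all genes. Without KO replicate 1 the median was 0.035, and without KO replicate 2 it was −0.11, so its sign depended on the library left out. *Npm1*, a nucleolar chaperone, fell from 1135 and 1178 CPM to 621 and 785 CPM (−0.72, SE 0.12, adjusted p = 9.50e-05) and *Hnrnpa1* from 35.6 and 34.5 CPM to 11.3 and 12.5 CPM (−1.56, SE 0.12, adjusted p = 1.11e-08). Of 17 genes of mTORC1 and its control of TOP mRNAs 3 rose and 3 fell (35.3% called). *Ddit4*, an inhibitor of mTORC1, rose from 80.4 and 74.4 CPM to 230 and 360 CPM (1.93, SE 0.15, adjusted p = 8.60e-09). *Sesn2*, also an inhibitor, rose (0.76), and *Larp1*, which binds TOP tracts, fell from 137 and 144 CPM to 91.7 and 91.6 CPM (−0.62, SE 0.086, adjusted p = 1.27e-05).

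The 76 mitochondrial ribosomal proteins, which build a separate ribosome from nuclear genes, had 6 higher and 19 lower, with a median of −0.063. This is 32.9% called against 47.4% of all genes. Those called lower were 25%, near the 23.4% of all genes, and those called higher were 7.89% against 24%. The 3 with the smallest p were *Mrpl18* (81.6 and 78.4 CPM against 49.1 and 53.6 CPM, log2 fold change −0.64), *Mrpl13* (92.2 and 93.4 CPM against 50.4 and 63.6 CPM, −0.71) and *Mrpl19* (39.2 and 42 CPM against 62 and 61.2 CPM, 0.60). This list had a median of −0.016 without KO replicate 1 and of −0.094 without KO replicate 2.

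Rows named as pseudogenes of members held few counts. Of 6 such rows *Rpl34-ps1* and *Rplp2-ps1* had no count in any library, and 2 rows were tested. *Rps19-ps3* rose from 14 and 17 counts to 45 and 34 (log2 fold change 0.94, adjusted p = 0.0401), and *Rps15a-ps6* fell from 48 and 42 counts to 34 and 33 (−0.82, adjusted p = 0.0348), while DESeq2 called neither. Their parent genes *Rps19* and *Rps15a* were not called.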

How the data were processed

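RNA-seq counts of 2 WT and 2 *Patz1* KO MN libraries were used, grouped by the genotype in the labels. Per the labels, RNA was depleted of rRNA and made into stranded libraries. Per the submitters' processing notes, the authors used TopHat2 (version 2.1.1), Bowtie2 (2.3.1), featureCounts (1.6.2) and DESeq2 with mm10. The annotation, strand setting and treatment of reads with several matches are not given in the sources used here. The deposited values are raw counts per gene symbol, and no row lacked a gene name.

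Genes with 10 or more counts in at least 2 libraries were tested with edgeR (version 4.0.16, limma 3.58.1, R 4.3.3) after TMM scaling, using the quasi-likelihood F test with genotype as the only term and Benjamini-Hochberg adjustment over all 14394 genes. The SE was computed as the size of the log2 fold change over the root of F. CPM use TMM-scaled library sizes. The code was tested on simulated data. The alternatives, DESeq2 (version 1.42.0) among them, are given in the closing section. The biological coefficient of variation was 7.71%.

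The labels number replicates 1 and 2 in both groups and say nothing of a shared day. No pair of replicates was 1 library deposited again (mean chi-square over genes 9.87 between the WT and 22 between the KO libraries). The p values rest on these 4 libraries only. For each gene, edgeR took most of the variance from other genes, with 15.9 prior against 2 residual degrees of freedom. A gene's p value therefore measures its own spread between libraries only in part.

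Positions, transcripts and overlaps came from GENCODE M21 (GRCm38, the same assembly as mm10), which holds 21777 of 23420 symbols under the same name and 1273 under an older one. Promoters came from RefSeq. Lengths are those of 1 principal transcript per gene, which is long for *Rps15a* (5179 bases), so its level per kb is understated. Genes were named by rule: *Patz1*, up to 8 called members in each direction, all members of the stalk, 5S, ubiquitin fusion and paralogue lists, the 3 highest and lowest levels, members under the minimum, all genes of the list outside the name rule and the 3 smallest p of other lists. The members next to the threshold, the 2 uncalled genes whose promoters are shown and the pseudogene rows with their parents were added after their values were seen. The members and lists were chosen with earlier results of these data known. Coding sequences, and for *Rps4y2* the whole transcript, were aligned with Biopython (1.88), and no protein sequences were used here. Some items are not reported here.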

Additional observations from a re-analysis of the deposited data

How the results depend on the processing

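The count of members called moved most when 1 library was left out. Across the fits that left out 1 library, members called lower went from 2 to 55, members called higher reached 14, and either direction went from 6 to 60. In these fits the lone library of a group is assumed to vary like the others. Small subunit calls went from 1 to 24 lower and up to 4 higher, large subunit calls from 1 to 31 lower and up to 10 higher, and the median log2 fold change from −0.37 to 0.057. Among all genes the lower calls went from 2203 to 3808.

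Other settings moved the counts too. With library size alone, 22 members were called, 17 lower, of which 9 were small and 8 large subunit genes. With no filter on low counts there were 29, 8 higher (4 small subunit) and 21 lower (12 small and 9 large). GC content and exon length offsets gave 27, 9 higher (3 small) and 18 lower (8 small and 10 large). A minimum fold of 1.2 left 6 members, 2 lower (1 of each subunit), and 4364 of all genes, 2234 higher and 2130 lower. DESeq2 size factors and 10 counts in every library each gave 5 small subunit genes lower, and DESeq2's Wald test 2 large subunit genes lower. DESeq2 shared 7 of its 9 member calls with edgeR. All 12 called members stayed called under the other scalings, filters and thinning. The cause of these differences was not tested. Apart from the minimum fold fit, the share of all genes called is not set beside these counts or the replicate block counts below. In the main fit that share was 47.4%, against 15.4% of members. The counts thus describe the settings and were not read as a result about the members.

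The replicate block used numbers that nothing ties to a shared day, and deviations of same-numbered libraries correlated at 0.0407. With the block, 26 members were called, 21 lower (9 small and 12 large). With the block and GC and length offsets there were 36, 10 higher (3 small, 7 large) and 26 lower (11 small, 15 large).

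Over single genes, 531 of 624 values kept direction and side of the threshold, 33 passed it newly, 34 lost it and 26 changed sign, none of them a called gene. Without filter the log2 fold changes were 0.014 for *Rpl11*, 0.011 for *Rpl3* and 0.019 for *Rpl7*. With GC and length offsets they were 0.013, 0.013 and 0.10, and with the block added 0.0072, 0.011 and 0.10. *Rpl7* was 0.0039 without the 20 most counted genes in TMM, and *Rpl22* was −0.014 with library size alone and −0.00021 with the replicate block. With 1 library left out, values went from −0.25 to 0.20 for *Rpl11*, −0.11 to 0.086 for *Rpl3*, −0.75 to 0.11 for *Rpl39*, −0.76 to 0.13 for *Rps27*, −0.25 to 0.26 for *Rpl22*, −0.14 to 0.12 for *Rpl7*, −0.62 to 0.018 for *Rps29*, −0.28 to 0.035 for *Fau*, −0.45 to 0.11 for *Rplp2* and −0.11 to 0.18 for *Rps3a1*. Depth limits *Rpl10l*, *Rpl39l*, *Rps27*, *Rpl34* and the pseudogene rows, whose counts were low.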
